A study of Mus musculus with 59 samples.

Results

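Autophagy is the route by which a cell encloses its own proteins and organelles in a membrane, the autophagosome, and delivers them to the lysosome. The genes described are 40 that encode its machinery, chosen by symbol from the 41227 genes of an expression table of the mouse pons, a brainstem region affected in spinocerebellar ataxia type 3. That disease is caused by an expanded glutamine repeat in ataxin-3, a deubiquitinating enzyme, and mice carrying or lacking the protein were compared by RNA sequencing. All mice were on a C57BL/6 background, and their ages are not given in the sources used here.

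The table holds 37 libraries in 2 sets. The first set has 9 libraries from males, with 3 of wild-type mice (WT), 3 of mice homozygous for a knock-in in which a repeat of 82 glutamines in Atxn3 is duplicated (dupKIHom) and 3 of mice lacking Atxn3 (Atxn3KO). The second set has 28 libraries from females. Of these, 6 are WT, 6 are heterozygous for the duplicated knock-in (dupKIHet), 4 are heterozygous (KIHet) and 4 homozygous (KIHom) for a knock-in allele in which that repeat is present singly. A further 4 are hemizygous for a transgene of human ATXN3 with 84 glutamines (YACQ84) and 4 for one with 15 (YACQ15). The knock-in alleles sit in the mouse gene, whereas the transgenic mice carry the human gene beside the mouse one. Libraries are numbered within a genotype in the order of the column names.

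In autophagy, the ULK kinase complex starts the process and a class III phosphatidylinositol kinase complex around beclin-1 marks the membrane from which the autophagosome grows. A ubiquitin-like conjugation cascade then fixes Atg8 proteins (the LC3 and GABARAP families) to that membrane, and cargo receptors such as p62, encoded by Sqstm1, tie ubiquitinated cargo to them. Neurons depend on this route to clear misfolded proteins, and the transcription factor TFEB is known for raising many of its genes. In mammalian cells ataxin-3 has been described as a deubiquitinase of beclin-1.

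Expression was given as FPKM, a fragment count scaled to transcript length and to the mapped total, so that levels can be compared between genes per unit of length. The files do not show how deeply each library was sequenced, and in a whole tissue fewer cells of a type and less RNA per cell cannot be told apart. Atxn3 was at 6.23 to 7.49 FPKM in the WT libraries of the first set, at 0.186 to 0.335 FPKM in Atxn3KO, and at 10.6 to 14.1 FPKM in dupKIHom. In the second set it was at 6.20 to 8.15 FPKM in WT and 10.4 to 13.4 FPKM in dupKIHet. Marker sums showed neurons, oligodendrocytes and astrocytes in every library. Ttr, the defining transcript of the neighbouring choroid plexus, exceeded 1000 FPKM in 9 libraries, among them Atxn3KO 1 and 3 and dupKIHet 1, 4 and 6. The summed FPKM of 12 astrocyte markers was 2136 to 2441 in WT and 1555 to 1724 in dupKIHet of the second set, and 2322 to 2509 in WT and 1808 to 1959 in dupKIHom of the first. The sums of 17 oligodendrocyte markers were 6490 to 7566 FPKM in WT of the first set. They were lower in both of its other genotypes, at 4191 to 4637 FPKM in dupKIHom and 5716 to 6071 FPKM in Atxn3KO. In the second they were 4950 to 5793 FPKM in WT, and 3882 to 4323 in dupKIHet, 4474 to 4938 in KIHet, 4172 to 4706 in KIHom and 4113 to 4689 in YACQ84, all below WT. Those of 13 neuron markers in the first set were 3831 to 3987 FPKM in dupKIHom, 4012 to 4119 FPKM in Atxn3KO and 4302 to 4498 FPKM in WT. The part of these shifts in cell markers in the autophagy results was not tested.

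The autophagy genes were well expressed in the pons. Their median level over all libraries was 18.6 FPKM in the first set, against 9.80 FPKM for all genes tested, and 20.9 against 9.61 FPKM in the second. The level of 30 of 40 members in the first set, and of 34 of 38 in the second, lay above that of the median gene. Gabarapl1, a GABARAP-like Atg8 protein, had the highest mean of the members in both sets, at 359 FPKM in the first and 403 FPKM in the second. Sqstm1 followed with 233 and 262 FPKM, and Pink1, the kinase that marks damaged mitochondria for removal, with 230.2 and 195 FPKM. The Atg8 genes Map1lc3a, Gabarapl2, Gabarap and Map1lc3b had means of 131.6 to 180.0 FPKM in the first set and 103 to 121 FPKM in the second.

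The enzymes upstream of the Atg8 proteins were expressed at a lower level. All 7 conjugation genes had means between 9.46 and 27.4 FPKM in the first set, with Atg12, a ubiquitin-like conjugate of Atg5, and Atg3, the enzyme that transfers Atg8 proteins to lipid, at the top. Among the initiation genes, Rb1cc1, the scaffold of the ULK complex, reached 35.0 and 36.4 FPKM in the 2 sets, while the kinases Ulk1 and Ulk2 lay between 16.0 and 17.7 FPKM. The lowest levels of the first set were those of Atg4a, a protease that trims Atg8 proteins (4.82 FPKM), Atg14, the subunit that directs beclin-1 to autophagosomes (5.27 FPKM), and Atg2b, a lipid transfer protein (6.36 FPKM). Atg14 and Atg2b were also low in the second set, at 5.67 and 7.50 FPKM. Tfeb stood at 8.04 and 9.54 FPKM.

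**Figure D1:**
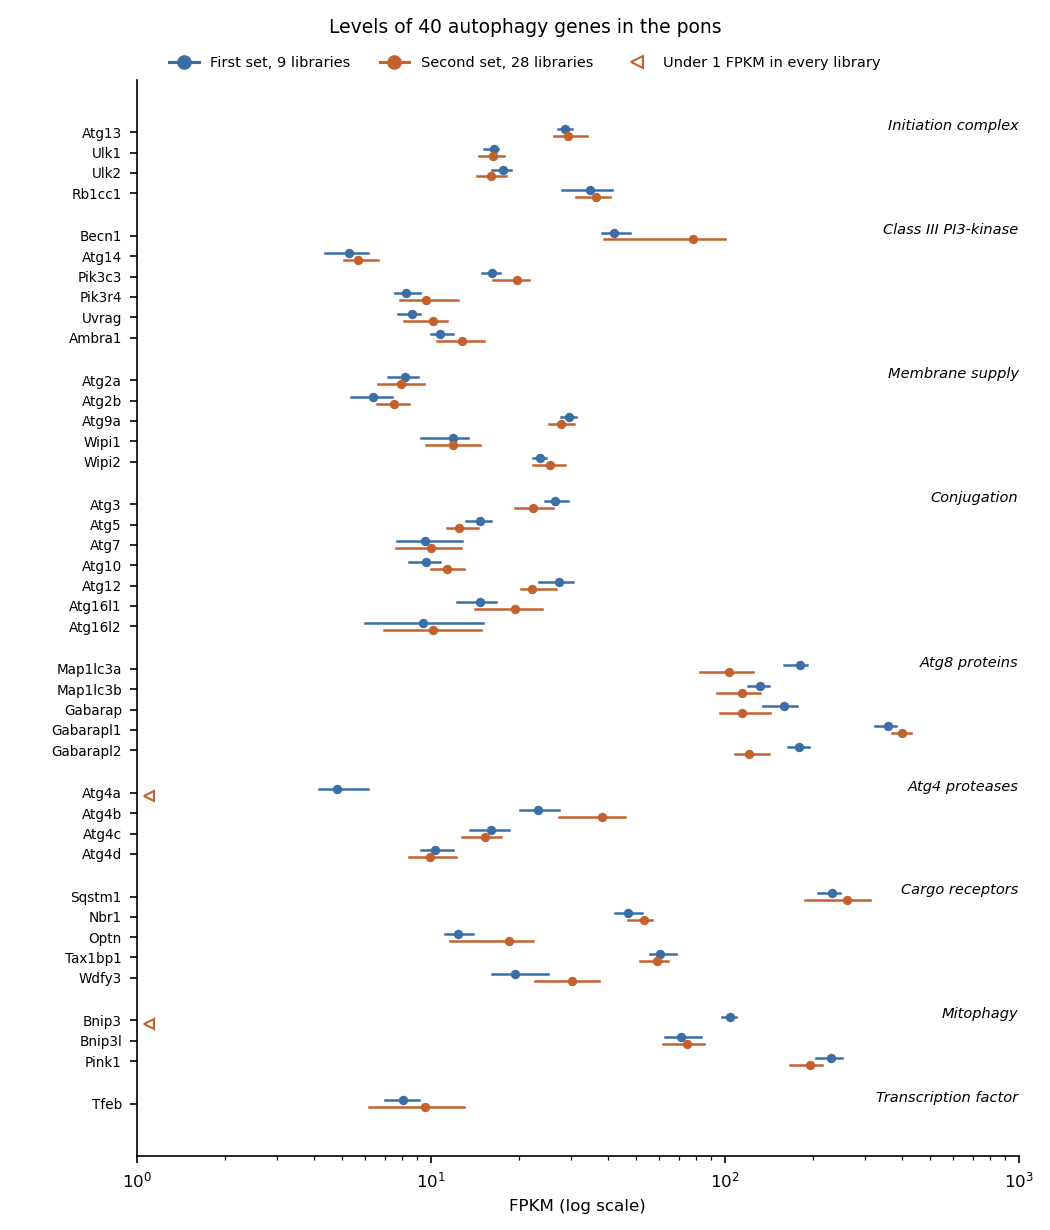
Levels of the 40 autophagy genes by role, in FPKM on a log axis; points are means over all libraries of a set and lines run from the lowest to the highest library. Gabarapl1 lies highest in both sets, and Atg4a and Bnip3 have no clear signal in the second.

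Atg4a and Bnip3 could be tested in the first set but not in the second. Atg4a was at 4.17 to 6.13 FPKM in the first set and was listed at 0 in 28 of 28 libraries of the second. Bnip3, a receptor for mitochondria that responds to hypoxia, was at 98.1 to 109.8 FPKM in the first set and at 0 to 0.565 FPKM in the second, with 12 of 28 libraries at 0. These were not the only such genes in the table: 426 genes at 4 FPKM or more in every library of the first set were under 1 FPKM in all those of the second, and 426 genes showed the reverse. Since the sets differ in sex and in the genes at or near 0, no member was compared between them.

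Libraries of the same genotype resembled each other more closely for these genes than for most. The median standard deviation of a member within a genotype was 0.0954 on the log2 scale in the first set, against 0.122 for all genes, and 0.105 against 0.144 in the second. The 95% confidence interval of the fold change stayed within 1.5-fold of no difference for 36 to 39 of the members in each of the 11 comparisons. It stayed within 1.2-fold for 21 to 29 of them, so smaller differences are not bounded for the others. Few members passed the test for a difference between genotypes. The median log2 fold change of the members was between -0.04 and 0.05 in every comparison.

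**Figure D2:**
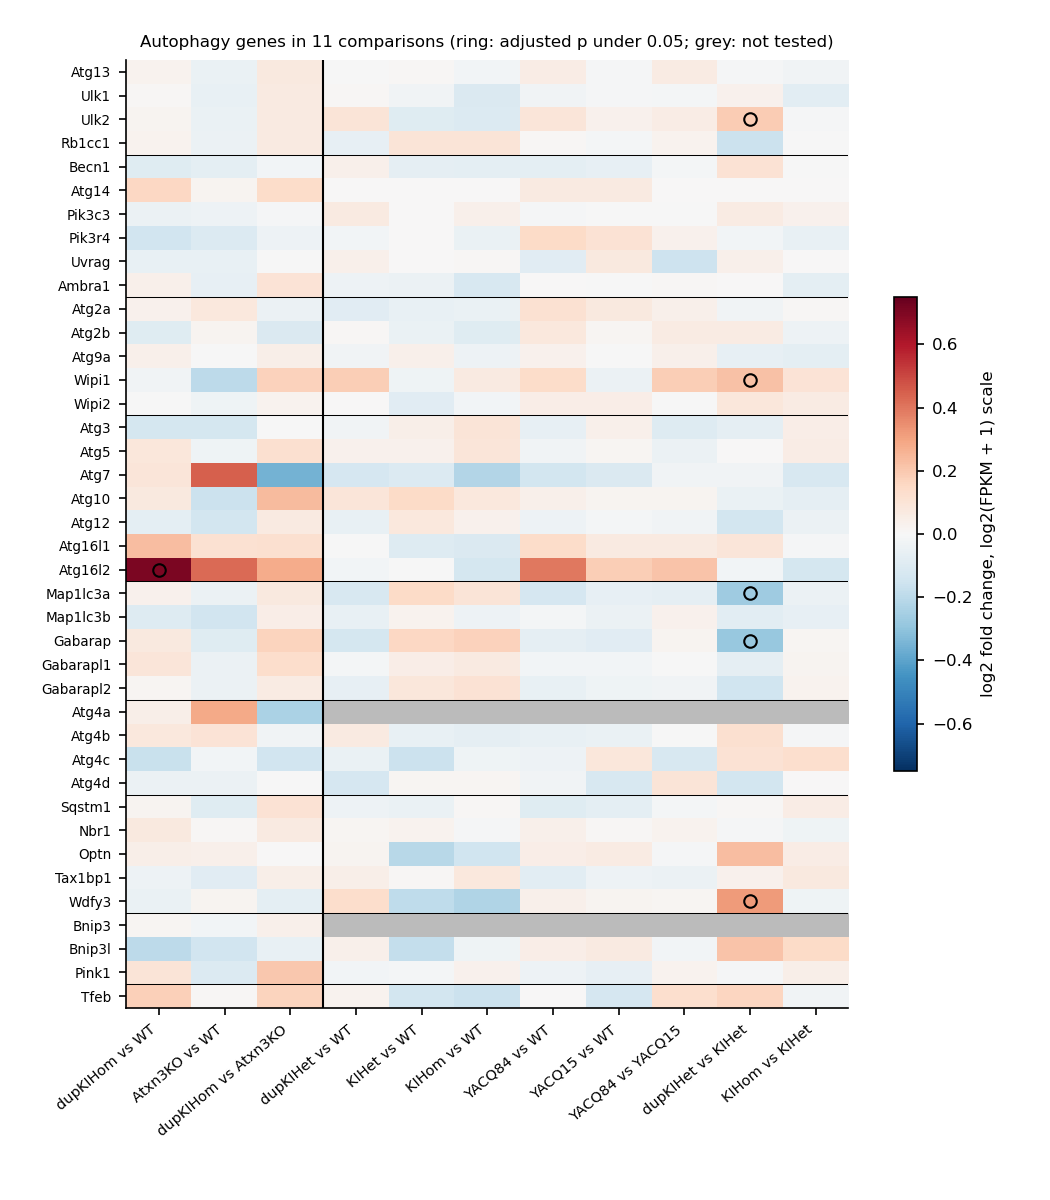
Log2 fold change of each autophagy gene (rows, grouped by role) in the 11 comparisons (columns; the vertical line separates the sets). A ring marks an adjusted p under 0.05, and the 6 ringed cells are Atg16l2 in dupKIHom against WT and Gabarap, Map1lc3a, Ulk2, Wdfy3 and Wipi1 in dupKIHet against KIHet.

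In males homozygous for the duplicated knock-in, Atg16l2, a relative of the conjugation scaffold Atg16l1, was the member that rose. Its level was 6.01, 7.24 and 7.33 FPKM in WT, 8.62, 9.15 and 11.0 FPKM in Atxn3KO and 10.3, 15.0 and 10.5 FPKM in dupKIHom. All dupKIHom libraries lay above all WT libraries, and so did the knockout ones, whose highest library overlapped dupKIHom. The log2 fold change of dupKIHom against WT was 0.70 with a standard error of 0.141 (limma, Benjamini-Hochberg adjusted p = 0.0324, higher in 3 of 3 libraries).

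It was 1 of 40 members called at an adjusted p under 0.05, 2.50% of them, where 1.64% of all genes tested were called. The call rested on a narrow margin. Without WT 1, WT 2, WT 3 or dupKIHom 2 the adjusted p was 0.136, 0.0783, 0.0727 and 0.0869, and with no filter on low values 0.11. An exon of Atg16l2 overlaps Fchsd2 on the opposite strand and the strand setting of the quantification is not given. Fchsd2 itself was at 13.3 to 13.9 FPKM in WT and 12.1 to 14.9 FPKM in dupKIHom.

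Atg16l1 was at 12.3, 13.2 and 15.1 FPKM in WT and at 16.7, 16.4 and 15.1 FPKM in dupKIHom, a log2 difference of 0.23 with an adjusted p of 0.329 (limma). Bnip3l, a mitochondrial receptor related to Bnip3, was at 65.1, 83.0 and 82.6 FPKM in WT and at 62.6, 71.1 and 66.0 FPKM in dupKIHom, with a log2 difference of -0.20 and an adjusted p of 0.433. Both pairs of groups overlapped. Tfeb was at 6.99 to 8.69 FPKM in WT and 8.52 to 9.14 FPKM in dupKIHom (log2 difference 0.18, adjusted p = 0.485). Sqstm1 was at 236 to 237 FPKM in WT and 234 to 248 FPKM in dupKIHom (0.02, adjusted p = 0.95). Groups that did not overlap were found for 8 of 40 members (20.0%), 4 in each direction, against 20.2% of all genes tested.

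Loss of ataxin-3 moved no member past the threshold. In Atxn3KO against WT 0 of 40 members were called, where 0.0142% of all genes were (limma). An unadjusted p under 0.05 was found for 5 members (12.5%), against 6.47% of all genes. Atg7, the activating enzyme of both conjugation reactions, was at 7.72, 7.99 and 8.87 FPKM in WT and at 12.5, 9.57 and 12.8 FPKM in Atxn3KO. Its groups did not overlap, with a log2 difference of 0.45 ± 0.109 (SE) and an adjusted p of 0.511. The higher Atg7 values belonged to knockout libraries 1 and 3, which are also those with Ttr at 1442 and 2909 FPKM; without libraries above 1000 FPKM of Ttr the log2 difference was 0.20.

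Atg16l2 in Atxn3KO differed from WT by 0.43 (adjusted p = 0.624) and Atg4a, at 4.63, 4.23 and 4.26 FPKM in WT and 5.12, 6.13 and 5.39 FPKM in Atxn3KO, by 0.28 (adjusted p = 0.625). Becn1 was at 38.7, 47.6 and 45.3 FPKM in WT and at 38.5, 42.8 and 43.5 FPKM in the knockout. The log2 difference for Becn1 was -0.07, with a 95% interval from -0.25 to 0.11. Groups without overlap were found for 6 of 40 members (15.0%), where the share of all genes was 10%.

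Set against the knockout, dupKIHom had 0 of 40 members called, where 1.27% of all genes were (limma). An unadjusted p under 0.05 was found for 6 members (15%), against 12% of all genes. Pink1 was at 222, 205 and 215 FPKM in Atxn3KO and at 242, 251 and 247 FPKM in dupKIHom, which did not overlap (log2 difference 0.20, adjusted p = 0.101). Atg10, the enzyme that joins Atg12 to Atg5, was at 8.88, 8.48 and 8.62 FPKM in the knockout and at 10.2, 10.8 and 10.3 FPKM in dupKIHom (0.24, adjusted p = 0.149). Atg7 was lower in dupKIHom by 0.36 on the log2 scale (adjusted p = 0.183). Without the libraries above 1000 FPKM of Ttr, Atxn3KO 1 and 3, that difference was -0.11, with Atxn3KO 2 as the only knockout library left. Without Atxn3KO 2 the difference was -0.48 (limma adjusted p = 0.0357). Non-overlapping groups were found for 6 of 40 members (15.0%), against 16.5% of all genes.

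**Figure D3:**
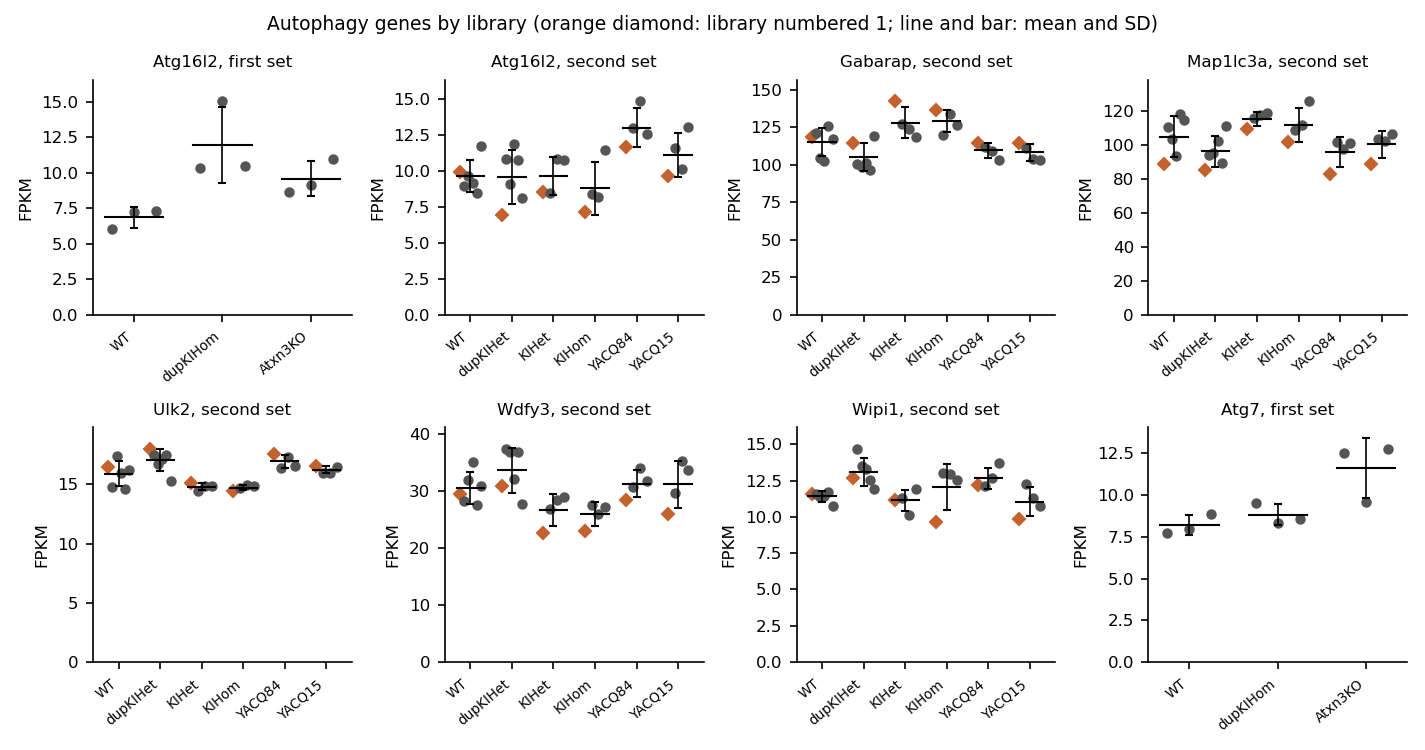
FPKM of the 6 autophagy genes called in any comparison, and of Atg7 in the first set, by genotype; each point is a library, lines and bars are means and standard deviations, and orange diamonds mark the libraries numbered 1 of the second set. Wipi1 in dupKIHet lies above every WT library and barely above the highest KIHet library, and Ulk2 in dupKIHet above every KIHet library.

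In the females, no member was called in any of the 5 models against WT in the main fit. The members called were 0 of 38 in dupKIHet, KIHet, KIHom, YACQ84 and YACQ15, where 2.55%, 0.115%, 0.601%, 0.547% and 0.0135% of all genes tested were called (limma). Members with an unadjusted p under 0.05 numbered 3, 5, 6, 1 and 0 in the same order. These were 7.89%, 13.2%, 15.8%, 2.63% and 0% of the members, against 12.7%, 10.6%, 13%, 7.27% and 4.51% of all genes. These comparisons share the WT libraries, so their values for one gene are not independent.

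Wipi1, a phosphoinositide-binding protein that recruits lipid transfer proteins to the growing membrane, came nearest in dupKIHet. It ranged from 10.8 to 11.7 FPKM with a median of 11.5 in WT and from 11.9 to 14.7 FPKM with a median of 13.0 in dupKIHet. Every dupKIHet library lay above every WT library. Groups without overlap, in either direction, were found for 1 of 38 members (2.63%) and for 1.99% of all genes. The log2 difference was 0.18 ± 0.0617 (SE), with an adjusted p of 0.142. Without the libraries above 1000 FPKM of Ttr the adjusted p was 0.0251, and with a replicate block by library number 0.042 (limma). Ulk2 stood at 14.6 to 17.4 FPKM in WT and 15.3 to 18.0 FPKM in dupKIHet (0.09, adjusted p = 0.29). Without the libraries numbered 1, which stood apart as described further down, the adjusted p of Wipi1 was 0.0441, so that 1 of 38 members was called where 3.42% of all genes were.

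In YACQ84 Wipi1 was at 12.2, 12.1, 12.7 and 13.7 FPKM, also above all WT libraries (log2 difference 0.14, adjusted p = 0.707). It and Atg2b were the members without overlap there, 2 of 38 (5.26%), against 2.03% of all genes. Atg16l2 was at 8.47 to 11.7 FPKM in WT and at 11.7, 13.0, 14.8 and 12.5 FPKM in YACQ84, with a log2 difference of 0.40 ± 0.126 (SE) and an adjusted p of 0.252. In YACQ15 it was at 9.65, 11.6, 10.2 and 13.1 FPKM (0.19, adjusted p = 1). Ulk2 in YACQ84 was at 17.6, 16.4, 17.3 and 16.5 FPKM (0.09, adjusted p = 0.715). In YACQ15 the next members by p were Atg4d, a protease gene (-0.12), and Atg4c (0.08), both with an adjusted p of 1.

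The 2 transgenes, which differ in the length of the repeat, were also compared directly. No member was called in YACQ84 against YACQ15, where 0.263% of all genes were. Wipi1 differed by 0.19 (adjusted p = 0.637), Uvrag, a beclin-1 partner at 8.10 to 10.4 FPKM in YACQ84 and 9.32 to 11.4 FPKM in YACQ15, by -0.16 (adjusted p = 0.87), and the protease gene Atg4c by -0.12 (adjusted p = 0.824). All 3 overlapped between the lines, and the 95% interval for Wipi1 ran from 0.03 to 0.34 on the log2 scale.

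In the single-repeat knock-ins no member passed the test against WT in the main fit. With a replicate block by library number, Gabarap, Wdfy3 and Gabarapl2 passed in KIHom and Atg4c in KIHet. That block called 706 and 358 of all 14807 genes there. Gabarap, an Atg8 protein, ranged from 102.5 to 126 FPKM with a median of 118 in WT. It was at 142, 128, 124 and 119 FPKM in KIHet (log2 difference 0.16, adjusted p = 0.407) and at 136, 120.2, 134 and 126 FPKM in KIHom (0.17, adjusted p = 0.272), overlapping WT in both. Atg4c was at 14.1 to 16.8 FPKM in WT and 15.3, 12.8, 13.7 and 13.9 FPKM in KIHet (-0.16, adjusted p = 0.267). Atg10, at 10.2 to 12.2 FPKM in WT and 13.0, 11.4, 12.2 and 11.9 FPKM in KIHet, differed by 0.15 (adjusted p = 0.449). All of these groups overlapped.

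Ulk1, at 16.2 to 17.2 FPKM in WT and 15.3, 15.5, 14.6 and 16.0 FPKM in KIHom, lay below all WT libraries in all 4 (log2 difference -0.11, adjusted p = 0.27). Wdfy3 was at 27.6 to 35.0 FPKM in WT and at 23.1, 27.6, 26.0 and 27.3 FPKM in KIHom (-0.22, adjusted p = 0.288). Ulk1 and Atg2b were the members without overlap, 2 of 38 (5.26%), against 3.1% of all genes. KIHom against KIHet had 0 of 38 members called, where 0% of all genes were (limma). An unadjusted p under 0.05 was found for 1 member (2.63%), Atg4c (0.13, adjusted p = 1), against 2.25% of all genes. Next by p were Ulk1 (-0.08) and Bnip3l (0.14).

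More members were called between the 2 heterozygous knock-ins, dupKIHet and KIHet, than in any other comparison. In all, 5 of 38 members (13.2%) were called, 3 higher and 2 lower in dupKIHet, where 10.7% of all genes were called, so the members' share was near that of the whole table. The Atg8 genes Gabarap and Map1lc3a were lower in dupKIHet. The kinase gene Ulk2, the receptor gene Wdfy3 and Wipi1 were higher. Markers of other cells moved in the same comparison: 9 of 11 endothelium markers were called higher in dupKIHet (median log2 fold change 0.53; summed level 127 to 156 against 86.5 to 99.9 FPKM in KIHet), and 9 of 12 astrocyte markers lower (median -0.46; 1555 to 1724 against 2163 to 2228 FPKM). Their part in the members' calls was not tested.

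Gabarap ranged from 96.7 to 119 FPKM with a median of 101 in dupKIHet, and 5 of these 6 libraries lay below all 4 KIHet values given above. The log2 fold change was -0.29 ± 0.0674 (SE), with an adjusted p of 0.00792 (limma). Relative to WT the same gene stood at -0.13 in dupKIHet (adjusted p = 0.365) and at 0.16 in KIHet, so that the WT median lay between the 2 models. Map1lc3a, which encodes the LC3A protein of the autophagosome membrane, ranged from 85.1 to 110.7 FPKM with a median of 94.5 in dupKIHet and stood at 109, 116, 118 and 118 FPKM in KIHet. Again 5 of 6 dupKIHet libraries lay below all KIHet ones, and the fold change was -0.26 ± 0.0834 (SE, adjusted p = 0.0418).

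Ulk2, a kinase that starts autophagy, ranged from 15.3 to 18.0 FPKM with a median of 17.3 in dupKIHet and was at 15.1, 14.4, 14.9 and 14.8 FPKM in KIHet. The groups did not overlap, and the log2 fold change was 0.19 ± 0.0444 (SE, limma adjusted p = 0.00813). Wdfy3, a large scaffold that brings protein aggregates to the machinery, ranged from 27.8 to 37.5 FPKM with a median of 34.5 in dupKIHet and was at 22.6, 26.8, 28.4 and 29.0 FPKM in KIHet. Of the 6 dupKIHet libraries 5 lay above all KIHet ones (0.32 ± 0.0923, adjusted p = 0.0264).

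Wipi1 was at 11.2, 11.3, 10.1 and 11.9 FPKM in KIHet, below every dupKIHet library (0.22 ± 0.0689, adjusted p = 0.0429). The nearest libraries all but met, at 11.92 FPKM in KIHet 4 and 11.94 FPKM in dupKIHet 6. Groups without overlap were found for 3 of 38 members (7.89%), Ulk2, Wipi1 and Gabarapl1, against 8.01% of all genes. Gabarap and Ulk2 kept an adjusted p under 0.05 in all 10 fits that each left out a library, Wdfy3 in 5, Wipi1 in 3 and Map1lc3a in 2. Only Gabarap and Ulk2 were called without dupKIHet 2, dupKIHet 3, dupKIHet 5, KIHet 1 or KIHet 2, and those 2 with Wdfy3 without KIHet 3. With the spread estimated from these 2 genotypes alone, none of the 5 was called (adjusted p 0.0549 to 0.0794); 703 genes of the whole table still were. Ulk2 was also lost with upper-quartile scaling (0.17, adjusted p = 0.0818), Map1lc3a and Wipi1 with no filter on low values (0.0677 and 0.067), and Map1lc3a without the libraries above 1000 FPKM of Ttr (0.0547).

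Transcript length moved with this comparison. Over all genes, the log2 fold change of dupKIHet against KIHet rose with the length of the longest annotated transcript (Spearman's rho 0.37 across 14068 genes, which share the same libraries and are not independent). Genes under 1500 bases had a median log2 fold change of -0.07, with 4.5% called lower, and those of 6000 bases or more a median of 0.14, with 22.9% called higher. The members called lower, Map1lc3a and Gabarap, have transcripts of 1112 and 1351 bases. Of the members called higher, Wipi1, Ulk2 and Wdfy3 have 3338, 5743 and 14274 bases. Across the 38 members the same rho was 0.17, and the part of length in these calls was not tested. Length moved with other comparisons too. The rho over all genes was 0.261 in dupKIHet, -0.306 in KIHet, -0.255 in KIHom, 0.195 in YACQ84 and 0.165 in YACQ15 against WT, and across the 38 members it was -0.50 in KIHom, where Gabarap and Wdfy3 had the values given above. In the first set it was -0.08 in dupKIHom and 0.17 in Atxn3KO against WT, and -0.22 between those 2.

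**Figure D4:**
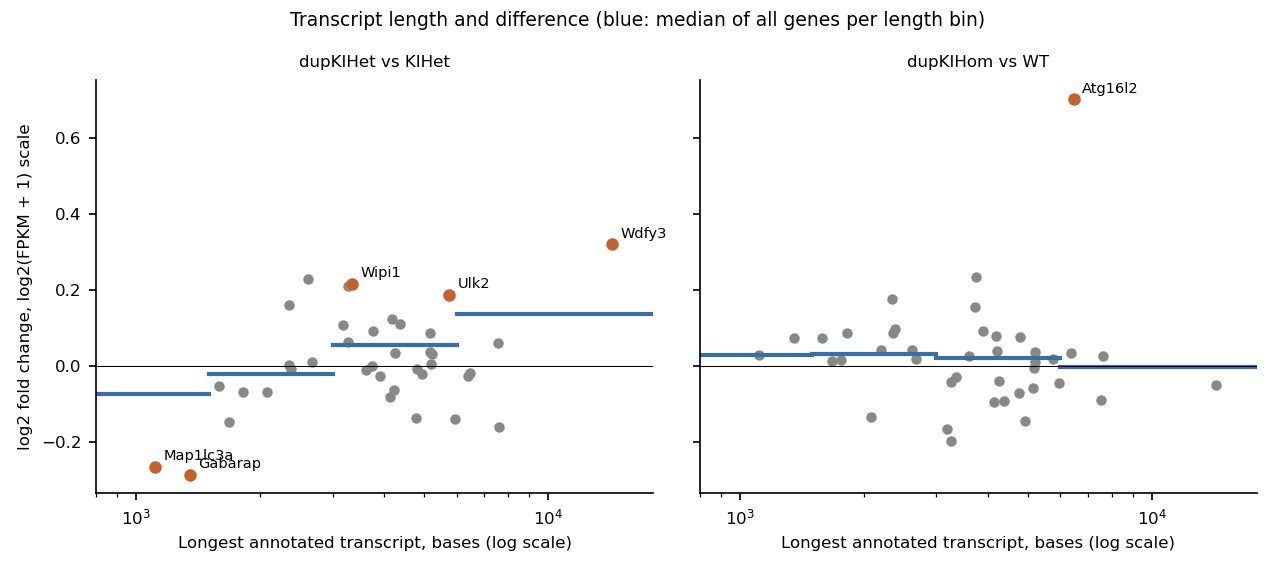
Log2 fold change of each autophagy gene against the length of its longest annotated transcript (log axis), for dupKIHet against KIHet (left) and dupKIHom against WT (right); orange points are called genes and blue lines are medians of all genes within a range of length. On the left the medians of all genes climb from -0.07 to 0.14, and Gabarap and Map1lc3a lie at the short end and Wdfy3 at the long end.

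Some members carried a pattern that cut across genotype. The second set holds 1 library numbered 1 in each of its 6 genotypes, and for 9 of 38 members (23.7%) all 6 lay below all 22 other libraries, which was so for 9.99% of all genes. Becn1 showed the widest gap, at 38.9 to 45.0 FPKM in the libraries numbered 1 and 76.7 to 100.4 FPKM in the others, and at 38.5 to 47.6 FPKM in the first set. Sqstm1 was at 187 to 211 FPKM against 251 to 312 FPKM. Optn, a receptor that links ubiquitinated cargo and mitochondria to LC3, was at 11.6 to 14.8 against 17.1 to 22.3 FPKM.

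Tfeb was at 6.20 to 7.92 FPKM in the libraries numbered 1 and 8.21 to 13.0 FPKM in the others, and Atg4b, a protease that processes Atg8 proteins, at 27.3 to 32.2 against 35.0 to 46.0 FPKM. The other 4 members of this kind were Nbr1, Pik3c3, Uvrag and Pink1. No member lay above all others in the libraries numbered 1. The labels name no run or batch for them, and each genotype has 1 among its 4 or 6 libraries.

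Some genes that overlap members differed between the sets. An exon of Becn1 overlaps Cntd1 on the opposite strand, which was at 0.103 to 0.406 FPKM in the first set and at 34.9 to 42.1 FPKM throughout the second. Optn overlaps an antisense transcript at 0 to 0.653 FPKM in the first set and 12.4 to 25.1 FPKM in the second. By library number, Cntd1 was at 35.5 to 38.5 FPKM in the libraries numbered 1 and 34.9 to 42.1 FPKM in the others. The antisense transcript was at 17.5 to 25.1 against 12.4 to 19.2 FPKM. Kri1, which overlaps Atg4d on the opposite strand, was at 6.67 to 8.17 against 11 to 15.6 FPKM. In the annotation 16 of 40 members share exonic sequence with another gene, 7 of them with a protein-coding one, so that values such as those of Becn1 and Optn are uncertain.

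**Figure D5:**
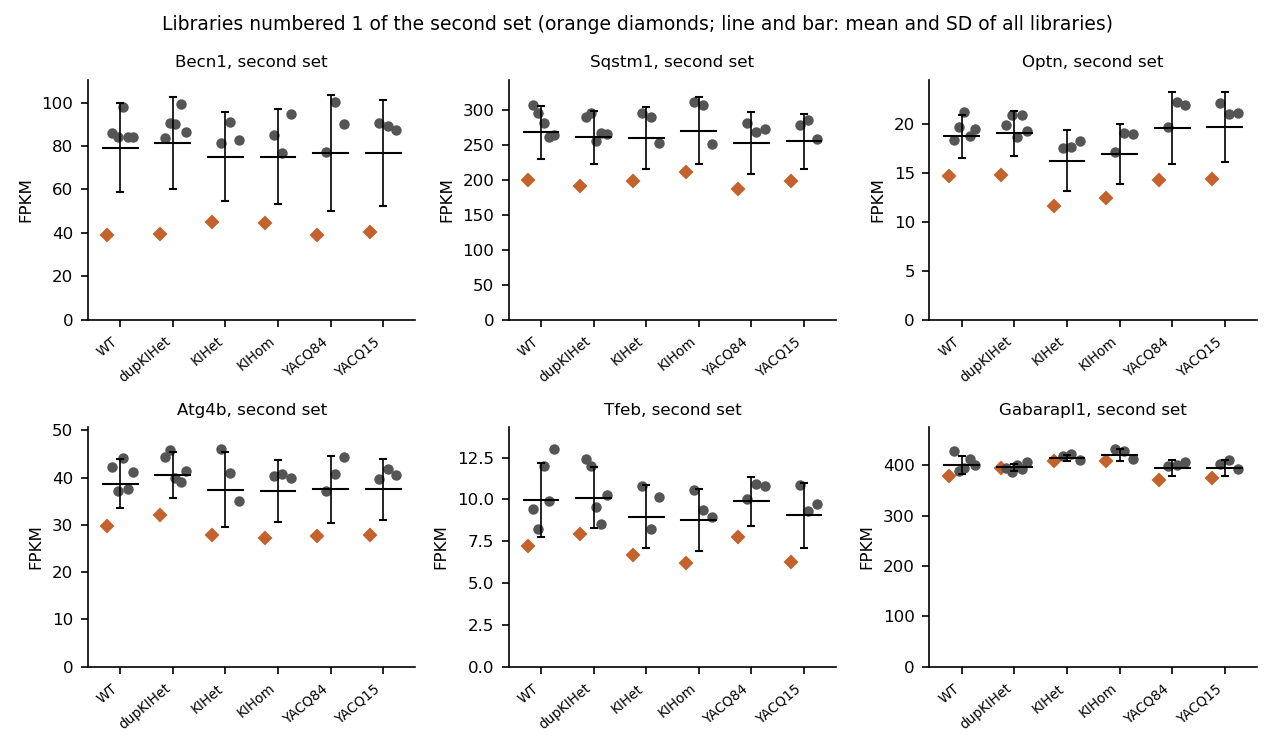
FPKM of 6 autophagy genes in the second set by genotype; orange diamonds are the libraries numbered 1, grey points all others, and lines and bars the mean and standard deviation. Becn1, Sqstm1, Optn, Atg4b and Tfeb are lower in all 6 libraries numbered 1, while those of Gabarapl1 overlap the rest.

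Because of these libraries the genotypes of the second set were also compared with a term for the number 1, an alternative chosen after seeing the data. Between dupKIHet and KIHet 11 of 38 members (28.9%) were then called, where 25.1% of all genes were; Atg12, Atg4d, Bnip3l, Gabarapl2, Optn and Rb1cc1 joined the 5 above. Without the libraries numbered 1 the count was 5 of 38 where 12.1% of all genes were called, with Gabarapl2 in the place of Wdfy3 (adjusted p = 0.051). Against WT the term left 0 of 38 members called in dupKIHet, KIHet, KIHom, YACQ84 and YACQ15, while 5.5%, 0.878%, 2.59%, 1.41% and 0.0135% of all genes were. It also left 0 called in YACQ84 against YACQ15 (0.939% of all genes) and in KIHom against KIHet (0%).

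Of the usual markers of the pathway, Sqstm1, Map1lc3b, Tfeb and Becn1, none was called in any of the 11 comparisons. In the second set Sqstm1 ranged from 200.3 to 307 FPKM with a median of 273 in WT and from 191 to 296 FPKM with a median of 266 in dupKIHet, and the log2 difference was -0.04 with a 95% interval from -0.32 to 0.24. Map1lc3b, which encodes the LC3B protein, ranged from 97.7 to 131 FPKM in WT and from 98.1 to 122 FPKM in dupKIHet (-0.06, interval -0.23 to 0.12). Tfeb ranged from 7.21 to 13.0 FPKM in WT and from 7.92 to 12.4 FPKM in dupKIHet (0.03, interval -0.28 to 0.33). For Becn1 the interval was wider, from -0.53 to 0.61, with the libraries numbered 1 included.

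Promoters of the members were read from RefSeq (assembly GRCm38.p6), which holds 38 promoters for 32 of the 40 genes, and searched over the 250 bases before the start for the E-box CACGTG, which TFEB and its relatives bind within longer sites, and for TGACNNNGC, the antioxidant response element, on both strands. CACGTG was in 4 of 38 (10.5%), those of Atg3, Atg5, Atg7 and Bnip3, where 6.02% of 32851 mouse promoters hold it. TGACNNNGC was in 3 of 38 (7.89%), those of Atg13, Tax1bp1 and Ulk2, where 10.2% of all hold it. The promoters of 4 genes that the results above turn on, and that of Atg7, which carries an E-box, are printed 5′ to 3′ with matches in capitals. A match is a description of these letters only.
Atg7, chr6:114670846-114671095, plus strand: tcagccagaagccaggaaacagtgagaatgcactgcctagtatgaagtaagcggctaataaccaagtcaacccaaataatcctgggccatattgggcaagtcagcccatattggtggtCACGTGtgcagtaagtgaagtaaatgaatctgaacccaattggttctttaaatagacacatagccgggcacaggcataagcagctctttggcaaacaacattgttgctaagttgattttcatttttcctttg
Atg16l2, chr7:101302089-101302338, minus strand: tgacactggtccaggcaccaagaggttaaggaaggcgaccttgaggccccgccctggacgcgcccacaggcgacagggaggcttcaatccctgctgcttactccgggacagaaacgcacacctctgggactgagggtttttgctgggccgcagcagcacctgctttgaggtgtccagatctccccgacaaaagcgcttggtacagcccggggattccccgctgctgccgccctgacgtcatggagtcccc
Ulk2, chr11:61855093-61855342, minus strand: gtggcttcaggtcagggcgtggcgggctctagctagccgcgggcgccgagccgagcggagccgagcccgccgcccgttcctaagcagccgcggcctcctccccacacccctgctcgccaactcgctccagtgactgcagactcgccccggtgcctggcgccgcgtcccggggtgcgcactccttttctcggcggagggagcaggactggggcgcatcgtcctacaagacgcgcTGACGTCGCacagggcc
Gabarap, chr11:69991120-69991369, plus strand: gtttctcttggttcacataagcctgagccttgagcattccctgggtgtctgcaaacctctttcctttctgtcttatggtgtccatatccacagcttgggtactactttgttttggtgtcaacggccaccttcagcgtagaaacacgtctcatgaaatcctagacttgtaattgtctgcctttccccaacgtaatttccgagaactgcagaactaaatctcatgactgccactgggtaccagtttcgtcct
Wipi1, chr11:109611390-109611639, minus strand: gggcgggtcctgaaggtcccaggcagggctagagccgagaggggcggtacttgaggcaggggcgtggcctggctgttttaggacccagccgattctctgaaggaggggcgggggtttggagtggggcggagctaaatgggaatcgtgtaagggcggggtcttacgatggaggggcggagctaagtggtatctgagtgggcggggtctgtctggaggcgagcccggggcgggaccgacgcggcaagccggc
Atg7 thus holds 1 CACGTG and Ulk2 1 TGACNNNGC, and neither was found in the window of Atg16l2, Gabarap or Wipi1.

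Further autophagy genes outside the 40 were followed as 5 lists (other core genes, other receptors, fusion with the lysosome, upstream control and mitophagy), of which 113 were tested in males and 108 in females. None of the 113 was called against WT in dupKIHom, where 1.64% of all genes were, or in Atxn3KO, where 0.0142% were (limma). In dupKIHet against WT 2 of 108 (1.85%) were called higher, where 2.55% of all genes were called: Sh3glb1, a membrane-bending partner of beclin-1 and Uvrag (log2 fold change 0.29, limma adjusted p = 0.00417), and Fam134b, a receptor for the endoplasmic reticulum (0.14, adjusted p = 0.0442). Fam134b passed in only 3 of 12 fits that each left out a library and in 3 of 8 other settings, with an adjusted p of up to 0.165.

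Ddit4, a stress-induced inhibitor of the mTORC1 kinase, fell in KIHet, from 35.8 ± 5.27 (SD, n = 6) to 21.7 ± 0.687 FPKM (n = 4; log2 fold change -0.68, limma adjusted p = 0.000807), and in KIHom to 24.7 ± 0.836 FPKM (-0.51, adjusted p = 0.0128). Lamtor5, a subunit of the Ragulator complex that anchors mTORC1 to lysosomes, was higher in KIHom by 0.36 (adjusted p = 0.0255), a call kept in 2 of 10 fits that each left out a library and in 5 of 8 other settings (adjusted p up to 0.126). Ddit4 in KIHom kept its call in 8 of 10 and 5 of 8 (up to 0.133). These were 1 of 108 genes (0.926%) in KIHet and 2 of 108 (1.85%) in KIHom, where 0.115% and 0.601% of all genes were called. No gene of the lists was called in YACQ84 or YACQ15. Between dupKIHet and KIHet 10 of 108 (9.26%) were called, against 10.7% of all genes, 9 higher in dupKIHet and 1 lower. The lower one was Stk36 (-0.39, limma adjusted p = 0.0159), an entry of the list of other core genes. Its level was low, at a mean of 1.82 FPKM in dupKIHet and 2.69 FPKM in KIHet. Those of smallest p among the higher genes were Sh3glb1 (0.45), the mTORC1 inhibitors Ddit4 (0.48), Sesn3 (0.40) and Tsc1 (0.21), and Ncoa4 (0.25), the receptor for ferritin. With the term for the libraries numbered 1 the count was 28 of 108 (25.9%), against 25.1% of all genes.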

How the data were processed

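Total RNA of the pons was sequenced, with extraction by Trizol and RNeasy columns per the labels' protocols. The authors deposited FPKM per gene and library. Build mm8 and the tools TopHat2, Cuffdiff, DESeq, Trimmomatic, FastQC and CASAVA 1.8.2 are named, without roles, in the submitters' processing notes. Depth is unknown, so precision rests on the spread between libraries. Of 59 labelled samples, 37 have a column; 22 were not analysed here. For 6 WT columns the name matched 2 samples each, and they were placed in a set by the table's arrangement. Whether each library is a separate animal is given only by the design text.

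The table has 41386 lines. Lines whose name became a date (27) were left out and 132 repeated symbols summed. Genes listed at 0 throughout a genotype but at 5 FPKM or more in every library of another were left out as failed estimates (3 in the first set, 7 in the second). The tests took genes reaching 1 FPKM in 3 or more libraries of the set, 14063 and 14807 genes. limma 3.58.1 in R 4.3.3 (moderated test with a trend, two-sided) was fitted to log2(FPKM + 1) with 1 mean per genotype in each set. Benjamini-Hochberg adjustment ran over all genes tested with calls at adjusted p under 0.05. Fold changes on this scale understate those of low genes. The fit was tried on simulated data in which libraries varied independently. These lack the differences shared by the libraries numbered 1, so they do not check the calls of the second set.

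The members, the further lists and the comparisons were chosen with earlier results of these data known. Named are members called in any comparison, the 3 of smallest p in each, the 5 highest and 3 lowest in each set, and Tfeb, Sqstm1, Map1lc3b and Becn1. From the further lists, called genes are named, at most 6 per comparison by adjusted p. Transcript lengths and exon overlaps came from GENCODE M21, which is of another build than the files, so no coordinates of the files are given. Alternatives were another pseudocount (0.1), no filter, upper-quartile scaling, a replicate block, the 2 genotypes alone, libraries above 1000 FPKM of Ttr left out, and each library left out; a term for, and omission of, the libraries numbered 1 were added after seeing the data.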

Additional observations from a re-analysis of the deposited data

Results flagged for a closer look

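Over those of the 25 named genes that were tested in the second set, 138 groups of 4 or 6 libraries were examined. In them 15 libraries stood far from the rest of their genotype by Dixon's test, where chance flags about 1 in 20 groups. Of these, 13 were libraries numbered 1. Becn1 was at 38.9 FPKM in WT 1 (others up to 98.2), at 39.7 FPKM in dupKIHet 1 (83.5 to 99.3) and at 40.2 FPKM in YACQ15 1 (87.3 to 90.8). Pink1 was at 175 FPKM in KIHom 1, 170 FPKM in YACQ84 1 and 167 FPKM in YACQ15 1, each below its group. Sqstm1 was at 187 FPKM in YACQ84 1 (others 269 to 282).

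Atg16l1 stood at 14.1 FPKM in KIHet 1 (others 19.3 to 19.7) and Atg4d at 8.46 FPKM in YACQ84 1 (10.5 to 10.8). In KIHom 1, Atg7 was at 7.62 FPKM (9.60 to 9.90), Uvrag at 9.58 FPKM (10.3 to 10.4) and Wipi1 at 9.68 FPKM (12.6 to 13.0). Gabarapl2 in YACQ84 1 was higher than its group, at 126 FPKM against 112 to 113. The 2 flags outside the libraries numbered 1 were Atg14 in dupKIHet 3, highest at 6.62 FPKM (others 5.25 to 5.45), and Wipi1 in WT 6, lowest at 10.8 FPKM (11.4 to 11.7).

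For 5 of 38 members (13.2%) the levels in dupKIHet and KIHet, both heterozygous knock-ins, differed, where those of 10.7% of all genes did. None of the 5 was called in either model against WT in the main fit over all genotypes, which has no replicate block. The log2 difference of dupKIHet from KIHet was -0.29 for Gabarap, -0.26 for Map1lc3a, 0.19 for Ulk2, 0.32 for Wdfy3 and 0.22 for Wipi1, all with limma adjusted p under 0.05 in the fit over all genotypes. With the 2 genotypes alone none of the 5 was called (limma adjusted p 0.0549 to 0.0794).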

How the results depend on the processing

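No direction reversed under any alternative run. The count of members called kept within 1.5 times its value in 72 of 82 comparisons with a setting other than leaving out a library. Most of these were counts of 0 that stayed at 0, which says little about stability. Only dupKIHom against WT and dupKIHet against KIHet had members called in the main fit. In dupKIHom against WT the count of 1 was 0 with no filter on low values, where 145 of 23341 genes were called. With a library left out it was 0 to 1, and likewise 0 to 1 in dupKIHom against Atxn3KO. For dupKIHet against WT the count was 1 without libraries above 1000 FPKM of Ttr, where 271 of 14641 genes were called. It was also 1 without the libraries numbered 1, where 502 of 14669 genes were. For dupKIHet against KIHet the count of 5 was 3 with no filter (1258 of 26536 genes called) and 0 with the 2 genotypes alone (703 of 14247). It was 11 with the term for the libraries numbered 1 (3714 of 14807), and 2 to 5 with a library left out. The cause of these changes was not tested. The fit of the 2 genotypes alone has fewer libraries to estimate the spread, and the part of this was not tested either.

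A replicate block by library number gave 1 member called in dupKIHet against WT, 1 in KIHet, 3 in KIHom and 10 in dupKIHet against KIHet, and moved no other count. Of all 14807 genes tested, the block called 903, 358, 706 and 4239 in the same order. Under it Gabarap (adjusted p = 0.0321), Wdfy3 (0.0447) and Gabarapl2 passed in KIHom and Atg4c (0.046) in KIHet, all against WT. Same-numbered libraries deviated together only in part (correlation -0.165 to 0.229 over 9 pairs in the first set and -0.247 to 0.373 over 62 pairs in the second, where 29 of these against 33 of 262 pairs of different number exceeded 0.1), so the numbers were not taken to pair the samples; 3 of 9 and 16 of 28 libraries correlated best with one of their own number. Depth is unknown, so low members such as Atg14 have an error that cannot be split into counting and biology.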
